A study of Glycine max with 14 samples.

Results

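The gene models around the R gene on soybean chromosome 9 were examined in seed coats of a black and a brown line. All gene models with a locus name from Glyma09g36500 to Glyma09g37500 were taken, which is the R gene Glyma09g36990 and its neighbours by name. They were 110 gene models of 89 loci, of 69425 complete gene models of 61337 loci in the whole table. Gene names of this annotation follow the order of genes along the chromosome, so a neighbour by name is a neighbour in position, but no distances in bases were computed.

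Seed coats of RM30-R* (genotype i, R*, T) are black, and seed coats of RM38-r (genotype i, r, T) are brown. Both lines are homozygous for i, which leaves pigment over the whole seed coat, and for T, which allows the cyanidin type of pigment. RM30-R* is a stable revertant of the variegated line RM55-rm, which was made by repeated backcrosses of a mutable r allele from PI91073 into the brown Clark isoline RM38-r, and its R* allele still carries the CACTA transposon TgmR* in Intron2. RM38-r carries an uninterrupted r allele that lacks a single C in Exon2. The lines are thus near-isogenic. Each line gave 7 RNA-Seq libraries at 5 stages of seed fresh weight. They were 100–200 mg, 200–300 mg, 300–400 mg with green cotyledons, 400–500 mg, and 300–400 mg in desiccating seeds. The green 300–400 mg and 400–500 mg stages had 2 libraries per line, and the others had 1. The study calls the second set of 400–500 mg a biological replicate, extracted and sequenced independently. Neither the study nor the labels say whether the 2 libraries came from separate plants, so p-values measure the spread between libraries only.

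R encodes a MYB transcription factor, one of a large plant family that binds DNA through MYB repeats. MYB factors of this kind work with bHLH and WD40 partner proteins to switch on late genes of the anthocyanin pathway, such as anthocyanidin synthase, and the R locus of soybean is classically known for separating black from brown seed coats. CACTA elements are DNA transposons that move by excision and reinsertion and leave a short duplication of the target at the site. A line made by backcrossing generally keeps a donor segment around the selected locus, so its neighbours there can carry donor alleles. How far such a segment reaches in RM30-R* was not measured here.

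Expression values here are for the earlier gene model Glyma09g36990, which ends sooner than the later model Glyma09g36983 that the study uses for R. Its implied length is 507 nt, against 714 nt for the coding sequence of R. The study's sequence is given for the later model, with the interval chr9:42562649-42564660. A pair of short stretches of that sequence shows where the alleles of the lines differ. In the Intron2 site, capitals mark the target bases that lie next to the insertion of TgmR* in RM30-R*. In the Exon2 site, the capital marks the base that is missing in RM38-r. Both are printed from the uninterrupted sequence of the study, on the strand of the gene.
TgmR* site in Intron2: tatattatatgcATGataatacagcttggg
Exon2 site: attgatatgatgatCagattgcacaagct

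Values are RPKM, the reads of a gene model scaled by its length and by the mapped alignments of its library, so levels of different genes can be compared. Whole reads could be recovered from the values, and the libraries held 49509767 to 100643236 mapped alignments in RM30-R* and 52510463 to 120239041 in RM38-r. Libraries differed in composition. The 75th percentile of the gene models above 0 was 8.18 to 9.55 RPKM in RM30-R*, against 6.28 to 9.63 RPKM in RM38-r, and the 2 lowest were the RM38-r libraries R125 (300–400 mg, replicate 1) at 6.28 RPKM and R113 (400–500 mg, replicate 1) at 8.05 RPKM. Flavonoid genes that mark the pigmented seed coat were present in every library, with CHS7 (chalcone synthase) at 19.5 to 509.1 RPKM in RM30-R*, against 20.8 to 526.4 RPKM in RM38-r. ANS3 (anthocyanidin synthase) was at 9.61 to 88.8 RPKM in RM30-R*, against 1.03 to 91.8 RPKM in RM38-r. Embryo markers were not checked, because neither the table nor the annotation used here names them.

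A gene model was called expressed at 0.5 RPKM or more in at least 2 of the 14 libraries. Of the 110 gene models, 74 (67.3%) of 53 loci were expressed, against 63.5% of all gene models. By locus the shares were 59.6% around R and 59.4% in the whole table, so the region was expressed about as often as the rest of the genome. A further 27 gene models were above 0 but below this level, and 9 were listed at 0 in every library, among them Glyma09g36980, the next name before the R gene. With 1 exception, Glyma09g37270 at 1.04 RPKM in its highest library, these 27 gene models stayed below 1 RPKM in every library.

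**Figure D1:**
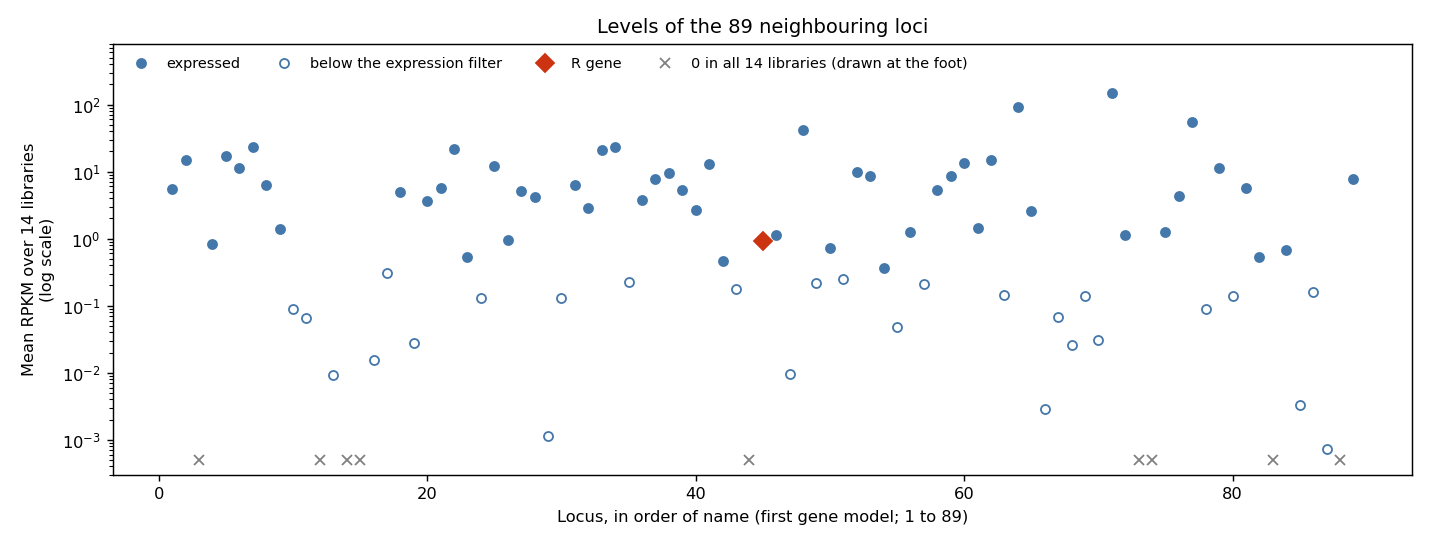
Mean RPKM over 14 libraries (vertical axis, log scale) of the first gene model of each of the 89 loci, in order of name. The R gene (diamond) lies low among the expressed loci, open circles are loci below the expression filter, and crosses are the 9 loci at 0.

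The R gene was one of the weakly expressed loci of its region. Its mean of 0.91 RPKM was number 46 of the 53 expressed loci in falling order. At the top stood Glyma09g37290 with a mean of 146.1 RPKM, Glyma09g37220 with 91.1 RPKM, Glyma09g37360 with 54.1 RPKM, Glyma09g37020 with 42.4 RPKM and Glyma09g36560 with 23.6 RPKM. The annotation used here gives these loci no names or functions. A median of 10 RPKM or more over the 14 libraries was reached by 26 gene models of 17 loci.

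In RM30-R* the R gene was at 0.00 RPKM at 100–200 mg, 0.70 RPKM at 200–300 mg, 0.32 and 0.12 RPKM at 300–400 mg, 1.07 and 0.38 RPKM at 400–500 mg, and 0.34 RPKM in desiccating seeds. The RM38-r libraries had 0.08, 0.46, 0.60 and 1.91, 2.19 and 3.70, and 0.91 RPKM at the same stages. The brown line was thus the higher one in 6 of the 7 stage-matched pairs, and the black line in the pair at 200–300 mg. The groups of 2 libraries did not overlap at 300–400 mg or at 400–500 mg. How many of all gene models separate in this way was not counted, so nothing is concluded from it. These values rest on few reads, 0 to 48 a library in RM30-R* and 4 to 140 in RM38-r. At 100–200 mg the RM30-R* library had 0 reads, which allows up to 0.0588 RPKM (3 reads), and the RM38-r library had 4 reads, with a 95% Wilson interval of 0.0302 to 0.20 RPKM. At this depth no difference was detectable at that stage. At 400–500 mg the intervals were 0.804 to 1.41 and 0.228 to 0.642 RPKM in RM30-R*, against 1.77 to 2.71 and 3.14 to 4.37 RPKM in RM38-r. Intervals and floors cover counting error only. They leave out reads across the base missing in RM38-r, which the aligner can lose. Such a loss would lower the RM38-r values only.

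Over all 14 libraries the log2 fold change of the R gene, RM30-R* over RM38-r on log2(RPKM + 0.5), was -0.86 (SE 0.27, unadjusted p = 0.00725, limma). After adjustment over all gene models the p-value was 0.67, so the difference did not pass the threshold of 0.05. The exact sign-flip permutation test over the 7 pairs gave p = 0.0469 (two-sided, not adjusted), where the smallest possible p is 0.0156. At 300–400 mg the means were 0.22 ± 0.14 RPKM in RM30-R*, against 1.26 ± 0.93 RPKM in RM38-r (SD, n = 2 each), a log2 fold change of -1.19 with an adjusted p of 0.36 in limma. At 400–500 mg they were 0.72 ± 0.48 RPKM in RM30-R*, against 2.95 ± 1.07 RPKM in RM38-r (SD, n = 2 each), a log2 fold change of -1.52 that did not pass adjustment in limma either (adjusted p = 1.00). In bulk seed coats, fewer cells that express a gene and less RNA per cell cannot be told apart.

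**Figure D2:**
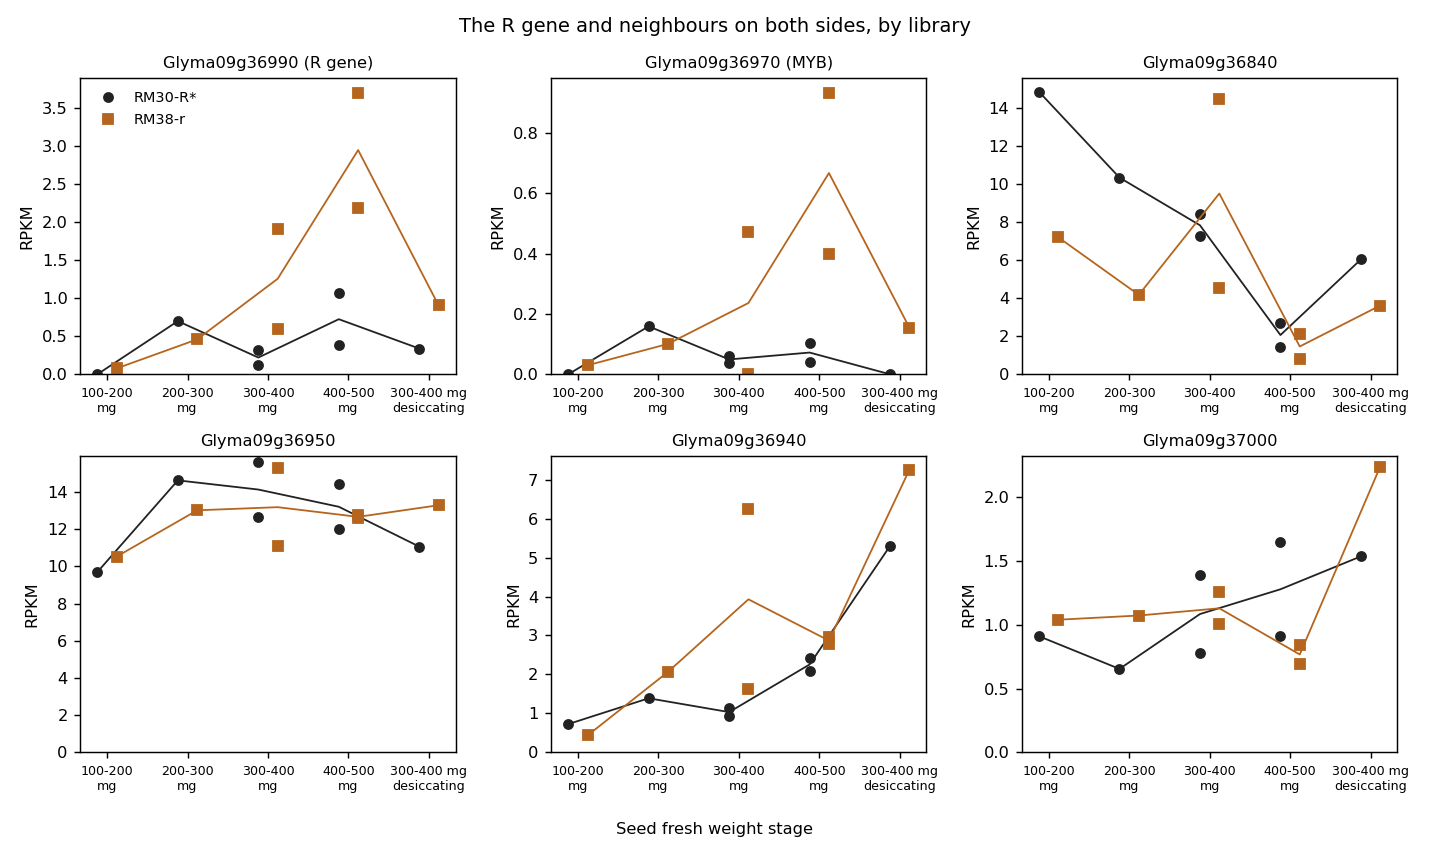
RPKM in each library (points) and stage means (lines) for the R gene and 5 neighbours, by stage of seed fresh weight. The stage means of the R gene and Glyma09g36970 are highest in RM38-r at 400–500 mg, while Glyma09g36950 lies between 9.70 and 15.6 RPKM in all 14 libraries.

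Next to R lie a pair of other MYB genes, Glyma09g36970 and Glyma09g37010. Glyma09g36970 did not reach the expression level. It had 10 reads in the 7 RM30-R* libraries and 51 in the 7 RM38-r libraries. Its highest value was 0.93 RPKM, in an RM38-r library of 400–500 mg. The next were 0.47 RPKM at 300–400 mg and 0.40 RPKM at 400–500 mg, also in RM38-r. In RM30-R* the highest value was 0.16 RPKM, at 200–300 mg. Over the 14 libraries it was the neighbour whose log2(RPKM + 0.5) was most like that of the R gene (Pearson r = 0.91), but the level is near the floor of 3 reads in most libraries. A read that aligned to both genes was counted for both, and the genes are close in sequence, so reads of the R gene and reads of Glyma09g36970 cannot be told apart in these values. From a stricter alignment without mismatches, the study proposes that Glyma09g36970 and Glyma09g37010 are not expressed in seed coats. Glyma09g37010 had 0 reads in RM30-R* and 5 reads in RM38-r, 4 of them in desiccating seeds.

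The inner neighbours, from Glyma09g36890 to Glyma09g37090, were 26 gene models of 19 loci besides R, and 20 gene models of 13 loci were expressed. Between the lines, 15 of the 20 had a log2 fold change above 0 and 5 below, with a median of 0.05, and 0 of them had even an unadjusted p under 0.05 in limma. On the side of the lower names, Glyma09g36960 lay at 0.24 to 0.63 RPKM in RM30-R*, against 0.13 to 0.94 RPKM in RM38-r, so the lines overlapped. Glyma09g36950 lay at 9.70 to 15.6 RPKM in RM30-R*, against 10.5 to 15.3 RPKM in RM38-r, with a log2 fold change of 0.02 (SE 0.11, adjusted p = 0.97 in limma). Its stage course did not pass either (adjusted p = 0.32, limma). On the side of the higher names, Glyma09g37000 lay at 0.65 to 1.65 RPKM in RM30-R*, against 0.70 to 2.24 RPKM in RM38-r, with a log2 fold change of -0.03 (SE 0.16). Glyma09g37020, the most abundant inner neighbour, lay at 30.3 to 53.8 RPKM in RM30-R*, against 33.2 to 49.6 RPKM in RM38-r, with a log2 fold change of 0.06 (SE 0.11) that was -0.06 once libraries were rescaled to equal 75th percentiles. Glyma09g37040 had a log2 fold change of 0.34 (SE 0.16, adjusted p = 0.76 in limma) and favoured RM30-R* in 5 pairs. Of these 5 genes, 0 showed a line difference past the threshold in limma, and 0% of the whole table did.

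Glyma09g36940 was the expressed inner neighbour with values most like those of R. In RM30-R* it was at 0.72, 1.39, 1.13 and 0.94, 2.42 and 2.09, and 5.30 RPKM over the 5 stages. In the brown line it had 0.43, 2.06, 1.61 and 6.24, 2.78 and 2.95, and 7.26 RPKM. It was highest in desiccating seeds of both lines, and its stage course passed the threshold (adjusted p = 0.0132, limma F test). The call was lost without either desiccating library (adjusted p = 0.0665 without R110 of RM30-R* and 0.0640 without R112 of RM38-r) and without the RM38-r library R43 of 100–200 mg (adjusted p = 0.0990). RM30-R* had the lower value in 6 of 7 pairs, with a log2 fold change of -0.52 (SE 0.26, adjusted p = 0.77 in limma), and its r with the R gene was 0.61. The 2 RM38-r libraries of 300–400 mg lay far apart, and without R156, the one at 6.24 RPKM, the log2 fold change was -0.26. The gene with the next highest likeness after Glyma09g36970 was Glyma09g36730 (r = 0.63), a weak gene at 0.15 to 0.58 RPKM in RM30-R*, against 0.14 to 1.39 RPKM in RM38-r. The least like was Glyma09g37230 (r = -0.65). These correlations run over 14 libraries that share stages and lines, and describe the libraries only.

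Glyma09g36840, a neighbour at or near which an earlier candidate for R had been placed, was better expressed than R. In RM30-R* it was at 14.9, 10.3, 8.41 and 7.27, 1.46 and 2.68, and 6.05 RPKM over the 5 stages. The RM38-r values were 7.21, 4.18, 4.55 and 14.5, 0.83 and 2.10, and 3.62 RPKM. It was lowest at 400–500 mg in both lines, and its stage course passed the threshold (adjusted p = 0.00394, limma). RM30-R* was higher in 6 of the 7 pairs, and the exception was the pair of second libraries at 300–400 mg. The log2 fold change of 0.51 (SE 0.27, adjusted p = 0.78 in limma) did not pass.

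Over the 14 libraries 0 of the 74 expressed gene models differed between the lines after adjustment in limma, and 0 of 44080 (0%) did in the whole table. Before adjustment, 10 of the 74 (13.5%) had a p under 0.05, against 6.66% of all gene models. RM30-R* was the higher line in 8 of these (5.84% of the table) and the lower line in 2 (0.817% of the table). Most gene models leaned that way in the deposited values, since 63 of the 74 had a log2 fold change above 0, as had 80.4% of the whole table, and the medians were 0.11 for the region and 0.10 for the table. With libraries rescaled to equal 75th percentiles the medians were 0.00 and 0.01, and the gene models with an unadjusted p under 0.05 were, of 75 tested, 5 higher, against 4.33% of the table, and 5 lower, against 2.01% of the table. Fold changes were small on the whole, with 58 of the 74 gene models under 0.3 in size and 1 over 1. The R gene had the second lowest log2 fold change of the 74. Below it lay Glyma09g37160 alone.

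**Figure D3:**
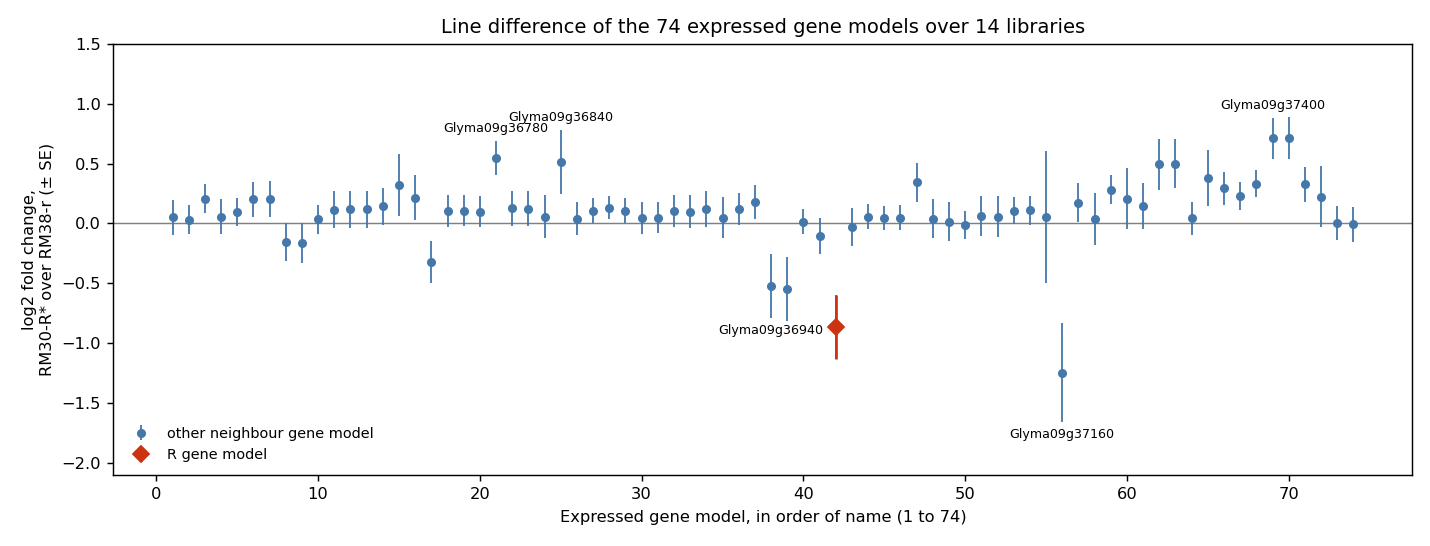
Log2 fold change of RM30-R* over RM38-r (vertical axis, with bars of 1 SE) for the 74 expressed gene models in order of name. The R gene (diamond, -0.86) and Glyma09g37160 (-1.25) lie lowest, Glyma09g37400 (0.71) lies highest, and 0 of the 74 pass adjustment.

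Glyma09g37160 had the largest line difference of the region. In RM30-R* it was at 0.23, 3.50, 1.02 and 1.40, 9.96 and 1.79, and 19.6 RPKM over the 5 stages. In RM38-r libraries the values were 0.27, 7.13, 7.00 and 15.8, 11.5 and 5.16, and 34.1 RPKM. RM30-R* had the lower value in all 7 pairs. The 100–200 mg pair rests on 13 reads in RM30-R*, against 16 reads in RM38-r, so its direction is not measurable at this depth. At 400–500 mg the lines overlapped, so the direction there depends on which libraries are paired. Both lines were highest in desiccating seeds, and the stage course passed the threshold (adjusted p = 0.0037, limma), except without the RM38-r library R43 of 100–200 mg (adjusted p = 0.0661). Averaged over pairs, its log2 ratio was -1.25 ± 1.10 (SD, n = 7), and the adjusted p in limma was 0.67. The exact sign-flip permutation p was 0.0156 (not adjusted), the smallest possible. That p follows from the same direction in all 7 pairs, for which the gene was named, so it adds no support. The difference was widest at 300–400 mg, where the means were 1.21 ± 0.27 RPKM in RM30-R*, against 11.4 ± 6.19 RPKM in RM38-r (SD, n = 2 each), a log2 fold change of -2.70 with an adjusted p of 0.16 in limma. It passed there when either RM30-R* library of 400–500 mg was left out of the shared estimate of spread (adjusted p = 0.0465 without replicate 1 and 0.0451 without replicate 2, settings in which 0.345% and 0.340% of the table passed). The annotation used here gives this gene no name, and it lies outside the inner neighbours.

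In the other direction stood Glyma09g37400 and Glyma09g36780. Glyma09g37400 was at 20.2, 6.95, 7.61 and 6.51, 3.42 and 3.38, and 0.79 RPKM in RM30-R*. Its RM38-r values were 16.8, 3.22, 2.24 and 2.77, 2.11 and 2.71, and 0.63 RPKM. It was higher in RM30-R* in all 7 pairs. Its values did not overlap between lines at 300–400 mg and at 400–500 mg, but the share of all gene models that do so was not counted. Its log2 fold change was 0.71 (SE 0.17, unadjusted p = 0.00129, adjusted p = 0.67 in limma) over 14 libraries and 1.33 (adjusted p = 0.10 in limma) at 300–400 mg. Glyma09g36780, much weaker, was at 4.29, 0.95, 1.05 and 0.71, 0.53 and 0.60, and 0.05 RPKM in RM30-R*. In RM38-r the values were 3.81, 0.36, 0.15 and 0.18, 0.25 and 0.40, and 0.02 RPKM. RM30-R* was again the higher line in all 7 pairs, with a log2 fold change of 0.55 (SE 0.14, adjusted p = 0.67 in limma). The desiccating pair rests on 3 reads in RM30-R*, against 1 read in RM38-r, so its direction is not measurable at this depth.

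In all, 8 of the 74 gene models (10.8%) had the same direction in all 7 pairs, against 3.07% of all gene models. RM30-R* was the higher line in 7 of them, Glyma09g36780.1, Glyma09g37290.1 and Glyma09g37290.2, Glyma09g37360.1, Glyma09g37380.1, and Glyma09g37400.1 and Glyma09g37400.2, against 2.76% in the table. It was the lower line in Glyma09g37160.1, against 0.315% in the table. Gene models of a locus share reads, so the 8 gene models stand for 6 loci. With libraries rescaled to equal 75th percentiles 4 of the 74 (5.41%) had the same direction, against 3.09%, and these were the 2 gene models of Glyma09g37400, Glyma09g36780.1 and Glyma09g37160.1. With the other pairing of libraries inside the replicated stages the count was 3 (4.05%, against 1.59% of the table). All 3 were higher in RM30-R*, so Glyma09g37160.1 was not among them.

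**Figure D4:**
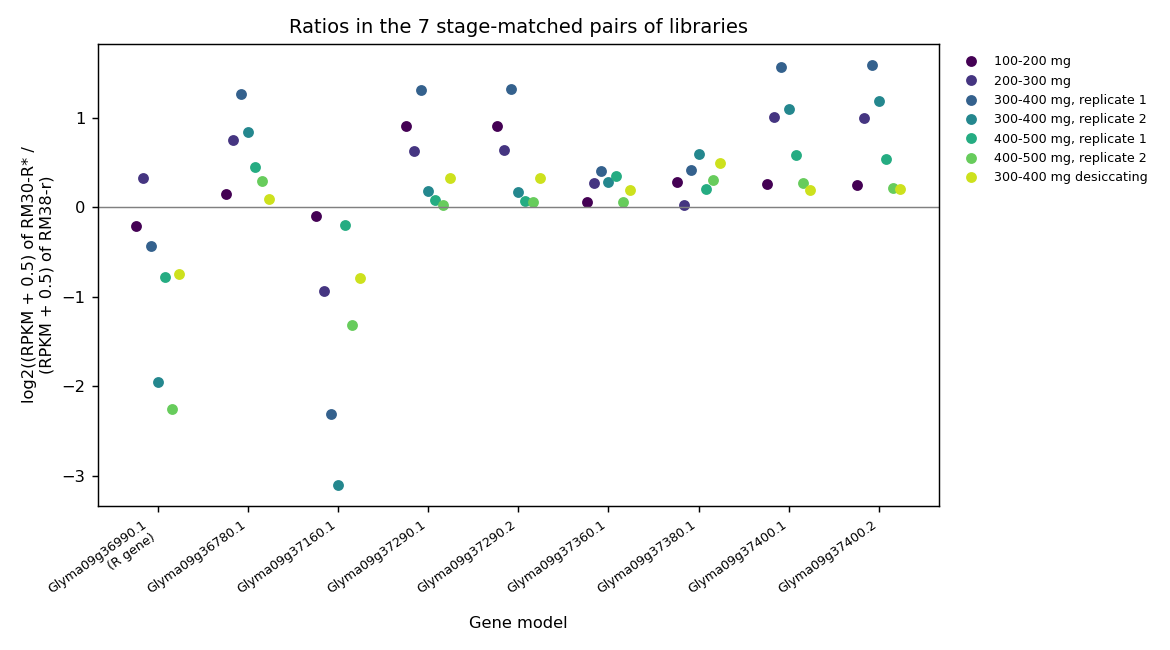
Log2 ratios of RM30-R* over RM38-r, with 0.5 RPKM added, in each of the 7 stage-matched pairs of libraries (points) for the R gene and the 8 gene models with the same direction in every pair. Of the R gene's 7 ratios 6 lie below 0, and for Glyma09g37160 all 7 do.

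At 300–400 mg, 0 of the 70 expressed gene models passed, against 0.0298% of the table (12 of 40334), and 10 of the 70 had an unadjusted p under 0.05 in limma, against 11.7% of the table. R125, the RM38-r library with the lowest 75th percentile, belongs to this stage. Without it 3 gene models passed at an adjusted p of 0.0272 in limma, the 2 models of Glyma09g36940 and Glyma09g37150.1, all lower in RM30-R*, where 1.12% of the table also passed in that direction (450 of 40334). Without both R125 and R113, 0 of the 70 passed, and 0 of the table did. Without R125 alone the RM38-r value is the single second library, whose spread is taken from the other groups, and Glyma09g37150 was named because of this result. It was at 1.42 and 2.40 RPKM in RM30-R*, against 2.88 and 24.3 RPKM in RM38-r at that stage. At 400–500 mg 0 of 70 passed, and 0 of the table did (0%). Before adjustment 2 of the 70 had a p under 0.05 there in limma, against 0.35% of the table, the R gene and Glyma09g37340.1, which is named here because of that count. The difference between the line effects of the 2 stages passed for 0 of the 70 gene models and for 0% of the table (unadjusted p under 0.05 for 2 of the 70 and for 3.22% of the table, limma).

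The stage course passed the threshold for 19 of the 74 gene models (25.7%) of 15 loci, against 34.4% of the table. After rescaling to equal 75th percentiles it passed for 45.3%, against 52.7% of the table. The share in the region was the lower one in both settings, and this difference was not tested. The count was 8 of 74 without R112 and 9 without R110, the desiccating libraries, 12 without R43 and 27 without R125. The count over the table moved the same way, with 9566 of 44080 gene models called without R112, 11001 without R110, 9418 without R43 and 19919 without R125. The calls of 7 gene models of 5 loci, Glyma09g36580, Glyma09g36780, Glyma09g36840, Glyma09g37290 and Glyma09g37400, were made under every alternative that tested them. Most of the called gene models had their highest stage at 100–200 mg in both lines (7 gene models of 5 loci) or in desiccating seeds in both lines (4 gene models of 3 loci). The R gene was itself among the 19 (F = 4.99, adjusted p = 0.0422, limma), and it was the only one of them with the highest mean at 400–500 mg in both lines. Its call was lost when any of 10 libraries was left out, with an adjusted p between 0.0167 and 0.24 over the 14 libraries left out in turn. The call was also lost with a pseudocount of 1 (adjusted p = 0.0602), with no filter (0.0721) and without R125 and R113 (0.0940, all limma).

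**Figure D5:**
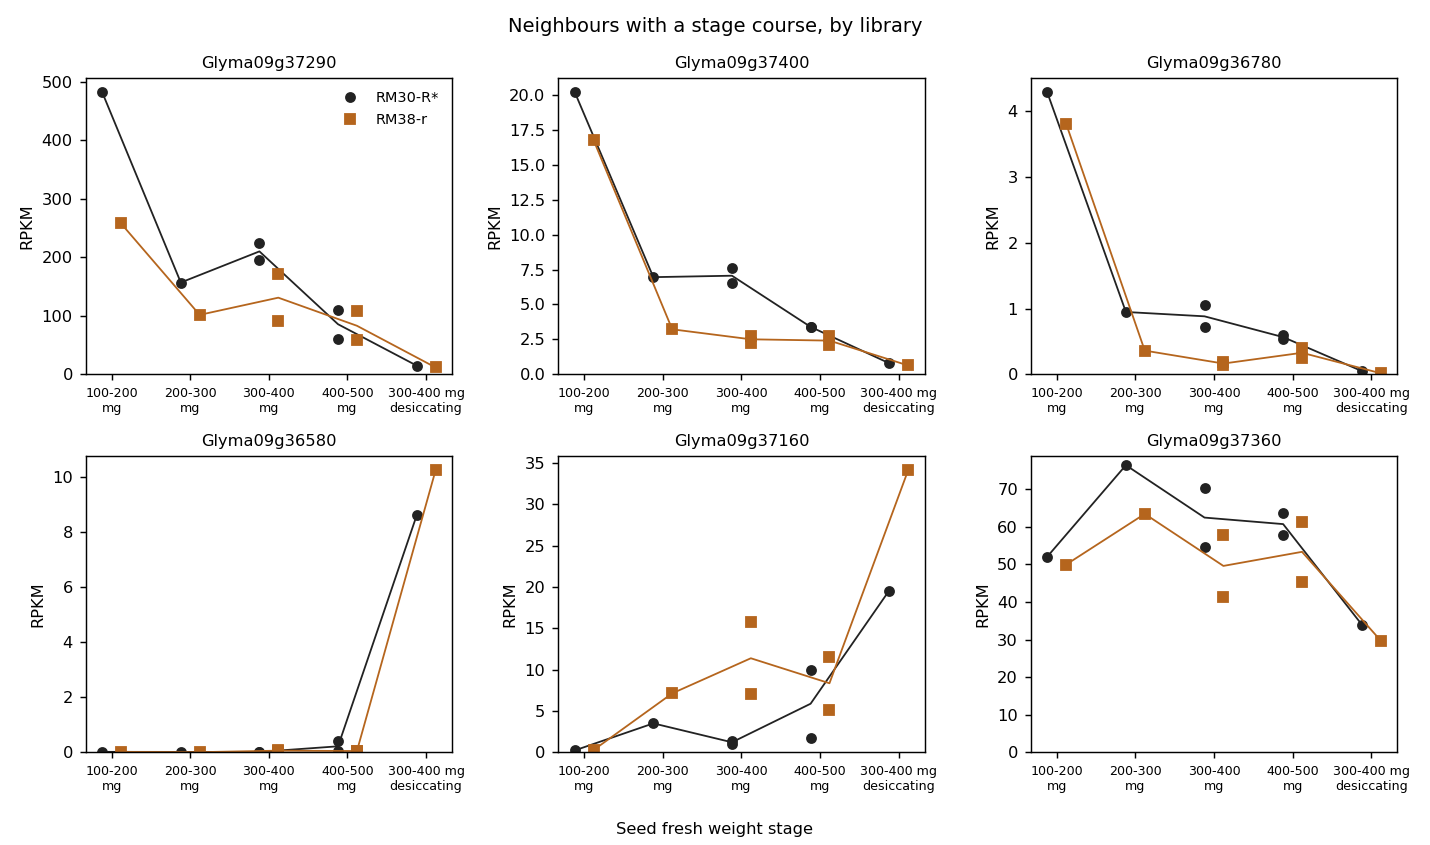
RPKM in each library (points) and stage means (lines) of 6 neighbours whose stage course passed the threshold, by stage of seed fresh weight. The neighbours shown were highest at 100–200 mg (top row), highest in desiccating seeds (Glyma09g36580 and Glyma09g37160) and highest at 200–300 mg (Glyma09g37360).

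The early group was led by Glyma09g37290, the most abundant neighbour. In RM30-R* it was at 482.3, 156.9, 225.3 and 195.0, 61.1 and 110.1, and 14.9 RPKM over the 5 stages. The brown line had 257.9, 101.6, 90.5 and 171.5, 57.8 and 108.2, and 11.7 RPKM. It was highest at 100–200 mg and lowest in desiccating seeds in both lines, with a stage course past the threshold (adjusted p = 2.51e-05, limma). Glyma09g37400 (adjusted p = 2.16e-05) and Glyma09g36780 (adjusted p = 2.37e-05) had the same early course in limma, with the values given above. These 3 loci were also among those higher in RM30-R* in all 7 pairs.

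The desiccation group was led by Glyma09g36580, which was close to silent until the seeds dried. In RM30-R* it was at 0.02, 0.01, 0.00 and 0.03, 0.04 and 0.39 RPKM over the first 4 stages and at 8.59 RPKM in desiccating seeds. In RM38-r libraries it had 0.02, 0.00, 0.03 and 0.09, 0.04 and 0.05 RPKM and then at 10.2 RPKM. The desiccating libraries held 971 of its 1042 reads in RM30-R* and 1165 of its 1196 reads in RM38-r. It had the strongest stage course of the region (F = 149.8, adjusted p = 5.94e-08, limma) and a log2 fold change between lines of 0.04 (SE 0.12).

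Other courses were weaker. Glyma09g37360 was highest at 200–300 mg and lowest in desiccating seeds, with 76.4 and 34.0 RPKM in RM30-R*, against 63.4 and 29.7 RPKM in RM38-r (adjusted p = 0.0136, limma). That call was lost without either desiccating library (adjusted p = 0.11 in both cases). Glyma09g36560 was lowest in desiccating seeds in both lines, at 14.9 RPKM in RM30-R*, against 11.7 RPKM in RM38-r (adjusted p = 0.0479, limma), a call that 11 of the 14 libraries left out in turn ended (adjusted p up to 0.33 without R112), as did the lack of a filter (adjusted p = 0.0612). The abundant genes Glyma09g37220 and Glyma09g37020 had no stage call (adjusted p = 0.39 and 0.12, limma). Glyma09g37430 was the leading gene among those highest at 300–400 mg, with 1.17 and 2.81 RPKM in RM30-R*, against 0.37 and 1.61 RPKM in RM38-r at that stage, but its course did not pass (adjusted p = 0.0650, limma). Glyma09g36570, highest at 400–500 mg with 4.60 and 8.45 RPKM in RM30-R*, against 7.27 and 8.95 RPKM in RM38-r, did not pass either (adjusted p = 0.14, limma).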

How the data were processed

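Seed coat RNA of 14 libraries was sequenced by the authors. Reads were mapped by them to the Glyma1 transcript set with Bowtie 1, with a few mismatches allowed. All alignments of a read were counted, except that reads with very many alignments were discarded. Division by model length and mapped alignments gave the deposited RPKM. Bowtie 1 aligns no gaps, so reads across the base missing in RM38-r can be lost from its R values, and reads shared by similar genes or gene models are counted for each. The table held 69425 complete gene models, and 1 incomplete last line was left out. The table may not hold every neighbour, and others were not analysed here. The labels gave each library's line and stage.

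Lines and stages were compared with limma 3.58.1 (R 4.3.3) on log2(RPKM + 0.5), two-sided, with trended variances and Benjamini-Hochberg adjustment over all gene models with at least 0.5 RPKM in 2 libraries (44080 for 14 libraries, 40334 for the 8 libraries of the replicated stages). A fold change on this scale understates the change of low genes. The 14-library fit added stage to line. Pairs were libraries of a stage and number series. Reads were recovered from the steps of low values (20536 of 20536 low gene models whole within 0.01 read), and the calculations were tested on simulated data. Named genes were the R gene, neighbours the study names, the 5 most abundant loci, 3 expressed loci on each side of R, the leading loci of each stage, those with the same direction in 7 pairs and a mean log2 ratio of at least 1 in size, and those most and least like R. The study also names Glyma09g36941, which was not analysed here. The members, lists and tests were chosen with earlier results of these data known. Alternatives tried were other pseudocounts, filters, scalings, the pair as a block, 1 gene model a locus and each library left out, and, after seeing the data, R125 and R113 left out together and rescaling with the block.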

Additional observations from a re-analysis of the deposited data

How the results depend on the processing

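The line comparison over 14 libraries called 0 of the expressed neighbours under every alternative run, and so did the comparison at 400–500 mg and the line by stage difference. At 300–400 mg, with 0 calls in the deposited values, 2 neighbours passed with the replicate block (Glyma09g37160.1, log2 fold change -2.70, adjusted p = 0.0158, and Glyma09g37400.2, 1.39, adjusted p = 0.0451, limma), which is 2.86% of 70, against 2.22% of the table. With rescaling to equal 75th percentiles and the block together 1 passed (Glyma09g37160.1, adjusted p = 0.0344, limma), 1.43% against 0.403% of the table, and 0 to 3 passed when a library was left out. The block took libraries of the same stage and number series as pairs. Their deviations from the group means correlated at 0.18 at 300–400 mg and 0.60 at 400–500 mg over 40334 gene models, which is 1 independent value a stage, so the labels and data do not establish a pairing. Stage calls, 19 in the deposited values, were 34 after rescaling to equal 75th percentiles, 36 after quantile normalization, 11 with the replicate block, and 8 to 27 with a library left out (8 without R112 and 9 without R110, the desiccating libraries of RM38-r and RM30-R*, 12 without R43, the RM38-r library of 100–200 mg, and 27 without R125, and also without R125 and R113). The calls of 7 gene models of 5 loci, Glyma09g36580, Glyma09g36780, Glyma09g36840, Glyma09g37290 and Glyma09g37400, were made in every alternative that tested them. The block alone ended the stage calls of the R gene (adjusted p = 0.13) and Glyma09g36560 (0.14), and rescaling with the block those of the R gene (0.13) and Glyma09g36940 (0.0618, limma). Of the 74, 8 gene models moved one way in every pair in the deposited values, against 4 after rescaling to equal 75th percentiles, 4 after quantile normalization and 3 with the other pairing. The R gene's log2 fold change stayed below 0 in every alternative and lay between -1.06 and -0.71 with a library left out. Small line differences changed sign. Glyma09g36950 was at -0.100 after rescaling, with and without the block, -0.103 after quantile normalization and -0.049 without R125 and R113. Glyma09g37020 was at -0.062 after rescaling, with and without the block, -0.058 after quantile normalization and -0.0008 without R125 and R113, a setting that put Glyma09g37430 at -0.022 and Glyma09g36580 at -0.0039. With a library left out the ranges were -0.0745 to 0.0805 for Glyma09g36580, -0.0402 to 0.0612 for Glyma09g36950, -0.2014 to 0.0132 for Glyma09g36960 and -0.1456 to 0.0394 for Glyma09g37000. The cause of these shifts was not tested. Depth limits the R gene, with 0 to 48 reads a library in RM30-R* and 4 to 140 in RM38-r.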
